A study of Rattus norvegicus with 22 samples.

Results

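Cdkn1a, Cdkn2a, Mdm2, Ccng1, Gdf15, Bax, Btg2 and Gadd45a are 8 genes of the p53 response and of cellular senescence, and they were chosen by name from the array's gene names, ignoring case. All 8 were found among 26295 gene names, on 10 probes, and all 8 are among the 17089 genes with a tested probe. The detection filter therefore removed none of them, and 9 of the 10 probes had a share of 0.5 or more of their spots flagged well above background in Cy5 on each of the 22 arrays.

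Livers of 22 male Sprague-Dawley rats were measured on two-colour arrays, 1 rat per array. Per the labels, which were followed, rat RNA was in Cy5 and Cy3 held a common reference of liver RNA from 10-week rats outside the experiment. The methods text also gives a common reference from such rats, yet its next sentence puts control rats in Cy3 and BASE-diet rats in Cy5. The rats were 8 weeks old at the start and ate a semi-synthetic control diet for 3 months (CD 3, 5 rats) or 14 months (CD 14, 6 rats), or BASE-diet for 3 months (BD 3, 5 rats) or 14 months (BD 14, 6 rats). BASE-diet had 6% salmon fat in place of lard, 8% linden flower extract, 8% pumpkin puree and 1% probiotic bacteria. The study asks what such a diet does to the liver transcriptome over a long time. Per the file headers the arrays sit on 5 slides, called A to E here. Slide A holds 3 BD 3 and 3 CD 14 arrays, and slide B holds 2 BD 3 and 1 CD 3. Slide C holds all 6 BD 14 arrays with 2 of CD 14, slide D has 3 CD 3 arrays, and slide E has 1 CD 3 and 1 CD 14. In Cy5, 52.4% of spots were well above background on CD 3 replicate 4 and 93.6% on CD 3 replicate 1, the ends of the range. The hepatocyte marker list, 8 of 8 tested, summed to a Cy5 signal of 583000 to 1590000 per array, with Ttr the brightest gene on each.

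p53 is a transcription factor that stressed or damaged cells stabilise. It switches on genes that halt division, repair DNA or start apoptosis, and it switches on Mdm2, whose protein marks p53 for destruction. Senescent cells have left the cell cycle for good and are held there largely by the inhibitors that Cdkn1a and Cdkn2a encode, and in liver both genes are used as signs of ageing and injury.

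Levels are log2 ratios of the rat's Cy5 signal to the reference, and differences are log2 differences between group means, from a limma fit over all 19434 tested probes. Since no array had its dyes swapped, a level also holds any dye bias of its probe. That bias cancels in a difference between groups only as far as it is the same on all arrays, which was not tested. Called means an adjusted p under 0.05 (Benjamini-Hochberg over all tested probes).

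No member was called for diet or for time. At 3 months of diet limma called 0 of the 8 members, beside 0% of all genes, and 0 members had an unadjusted p under 0.05, beside 6.94% of all genes. At 14 months it called 0 members against 0%, and 0 had an unadjusted p under 0.05 against 4.11%. For time on the control diet the limma counts were 0 members called, against 0%, and 0 at an unadjusted p under 0.05, against 10.1%. For time on BASE-diet limma called 0 members, against 0%, and 1 member, Mdm2, had an unadjusted p under 0.05, against 7.27%. The difference between the diet effects at the 2 times gave 0 members called by limma, against 0%, and 0 at an unadjusted p under 0.05, against 4.57%. The F test over the 4 groups gave 0 members called by limma, against 0.0234%, and 0 at an unadjusted p under 0.05, against 10.2%.

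The groups overlapped for every member. Not 1 of the 8 main probes had groups that did not overlap, and over all genes without a missing value that share was 0.715% for diet at 3 months and 0.697% for diet at 14 months. For time it was 0.485% with the control diet and 2.24% with BASE-diet. With the 4 group means of a member in order, each gap between neighbours was below the larger of both SDs, in all 8 members. Between groups that are not neighbours the gap can be larger than both SDs. In Mdm2 BD 14 minus BD 3 was 0.76, with SDs of 0.32 and 0.52, and in Bax 0.57, with SDs of 0.35 and 0.24.

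Gdf15 and Ccng1 were above the reference on all 22 arrays, a pattern that 0.788% of all genes have, while no main probe of a member was below it on all 22, which 1.83% of genes are. Mdm2 was above the reference on 21 arrays, Bax on 20, Btg2 on 18, Gadd45a on 17 and Cdkn2a on 7. The main probe of Cdkn1a was above it on 1 array only.

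**Figure D1:**
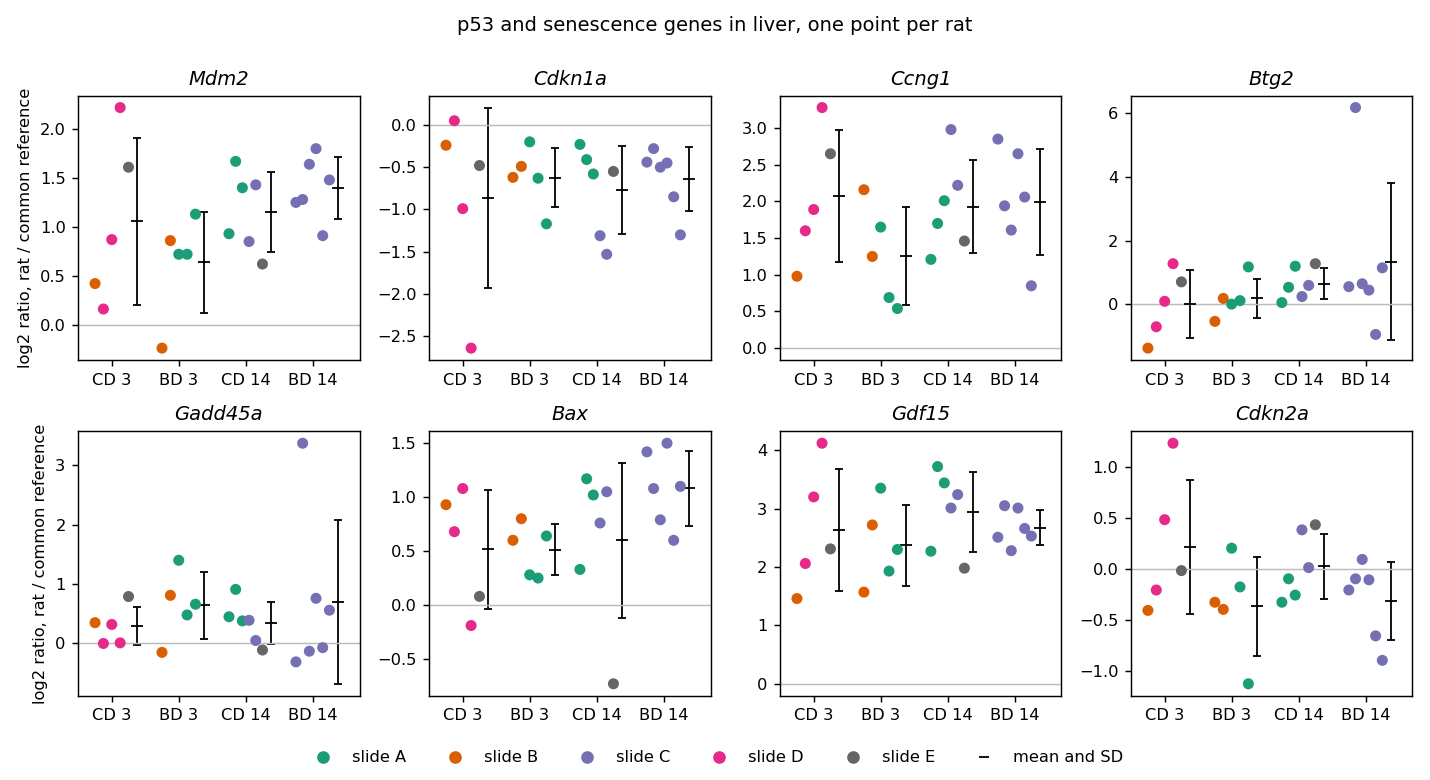
Each point is the log2 ratio of 1 rat to the common reference for the main probe of a member gene, by group, coloured by slide, with the group mean and SD beside it. Groups overlap in every panel, Gdf15 and Ccng1 stay above 0 on all 22 arrays, and BD 14 replicate 2 stands at 6.18 for Btg2 and 3.37 for Gadd45a.

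Mdm2, the ubiquitin ligase that holds p53 in check and is itself a p53 target, had the smallest unadjusted p of any member. Its main probe, A_44_P634946, lies at rn4 chr7:56996880-56996939. The BD 3 rats had log2 ratios of -0.24, 0.86, 0.72, 0.72 and 1.13, and the 6 BD 14 rats ran from 0.91 through a median of 1.38 to 1.80. Of the BD 14 rats 5 were above the highest BD 3 rat, and the lowest BD 14 value lay inside the range of BD 3. The mean was 0.64 ± 0.52 (SD, n = 5) in BD 3 and 1.40 ± 0.32 (SD, n = 6) in BD 14. The log2 difference over time on BASE-diet was 0.76 (SE 0.32, 95% interval 0.09 to 1.42), with a limma p of 0.0274 and an adjusted p of 0.608. Without BD 3 replicate 1, the lowest rat, the difference was 0.54, and without it, BD 14 replicate 3 or BD 14 replicate 4 the unadjusted p was not under 0.05.

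On the control diet Mdm2 was spread wider at 3 months, with an SD of 0.85 against 0.41 at 14 months. CD 3 rats had 0.42, 0.16, 0.87, 2.22 and 1.61, and CD 14 ran from 0.62 through 1.17 to 1.67. The CD 3 rats reached both below and above all the CD 14 rats. The log2 difference over time on the control diet was 0.10 (95% interval -0.57 to 0.76). The diets differed by -0.42 at 3 months (95% interval -1.11 to 0.28) and by 0.25 at 14 months (-0.39 to 0.88). Whether the time difference of Mdm2 depends on diet was tested as an interaction, which came to 0.66 (95% interval -0.28 to 1.60, limma p 0.159, adjusted p 0.999). Without CD 3 replicate 4 the diet difference at 3 months was -0.13, the time difference on the control diet 0.39 and the interaction 0.37.

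The slides bear on the Mdm2 difference, because no slide holds both BD 3 and BD 14. A fit with slide as a block joins them through the control arrays on shared slides, and gave 0.52 over time on BASE-diet (95% interval -0.72 to 1.76). The block put diet at -0.60 at 3 months and 0.26 at 14 months, time on the control diet at -0.33 and the interaction at 0.86. From Cy5 alone Mdm2 was at 1.06 over time on BASE-diet and at -0.73 for diet at 3 months (adjusted p 0.214), with an interaction of 1.14 (limma p 0.0112, adjusted p 0.31, the lowest of 0.31 to 1 over 32 other settings). Over 34 other settings the adjusted p of this difference ran from 0.0959, with the Cy5 channel alone, to 0.99, with slide as a block. Without the block, time and slide cannot be told apart here. On slide C the 6 BD 14 arrays had a mean Mdm2 ratio of 1.40 and the 2 CD 14 arrays 1.14. Slide B gave BD 3 minus CD 3 as -0.11, and slide E gave CD 14 minus CD 3 as -0.99 from 1 rat each.

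A probe elsewhere in the gene gave other values. Mdm2 probe A_43_P16885, at rn4 chr7:57005501-57005835, was well above background on 21 of 22 arrays. Its difference over time on BASE-diet was 0.16 (95% interval -0.76 to 1.08), or 1.01 with slide as a block (95% interval -0.32 to 2.34), and its r with the main probe over the 22 arrays was -0.07, or 0.18 without CD 3 replicate 4. Fitted with slide as a block, its interaction of diet and time was 2.63 (limma p 0.00213, adjusted p 0.301), against 0.50 without the block (adjusted p 0.999). The same fit gave -1.67 for diet at 3 months (limma p 0.00813, adjusted p 0.338), 0.96 for diet at 14 months and -1.62 for time on the control diet (limma p 0.0128, adjusted p 0.778), where the fit without the block had -0.06, 0.44 and -0.34. The array where this probe was not well above background is CD 3 replicate 4, and leaving it out of the fit without the block gave -0.47, 0.44 and -0.75, with an interaction of 0.91. Within slide B, with 2 BD 3 rats and 1 CD 3 rat, this probe gave -1.96. Its Cy5 signal was 1160 on CD 3 replicate 1 and 1480 on CD 14 replicate 1, the arrays with 4.44% and 4.05% of non-uniform spots, while the next highest array had 491. The part of those arrays in the slide-block value was not tested.

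Cdkn1a encodes p21, the inhibitor through which p53 stops the cell cycle, and its groups overlapped on either probe. The main probe, A_64_P123895, lies at rn4 chr20:7385536-7385595. CD 3 rats had log2 ratios of -0.24, 0.05, -0.99, -2.64 and -0.48, and BD 3 rats had -0.62, -0.49, -0.20, -0.63 and -1.17. At 14 months CD 14 ran from -1.53 through -0.56 to -0.23, and BD 14 from -1.30 through -0.48 to -0.28. Apart from CD 3 replicate 4, at -2.64, the rats of all 4 groups lie in 1 band. The 4 log2 differences were 0.24 for diet at 3 months (95% interval -0.56 to 1.03), 0.13 for diet at 14 months (-0.59 to 0.85), 0.09 for time on the control diet (-0.66 to 0.85) and -0.01 for time on BASE-diet (-0.77 to 0.74). Blocked by slide they were, in the same order, -0.32, 0.78, -0.06 and 1.04 (95% interval of the last -0.28 to 2.36). Cy5 alone gave 1.43 (limma p 0.00902, adjusted p 0.137), -0.58, 0.99 and -1.02 (limma p 0.0439, adjusted p 0.292). Over 34 other settings the adjusted p for diet at 3 months ran from 0.137 to 0.999, and for time on BASE-diet from 0.292 to 1.

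The second Cdkn1a probe, A_44_P914438 at rn4 chr20:7386596-7386655, was above the reference on all 22 arrays, at 0.63 to 3.23. Its group means were 1.56 ± 0.63 (SD) for CD 3 and 1.64 ± 1.05 for BD 3, then 1.77 ± 0.59 for CD 14 and 1.99 ± 0.73 for BD 14. The probes stand on opposite sides of the reference on 21 arrays, and their r over the 22 arrays was 0.31. The difference over time on BASE-diet was 0.36 (95% interval -0.55 to 1.26), and 1.66 with slide as a block (95% interval 0.10 to 3.21, limma p 0.0385), with adjusted p of 0.866 and 0.99 in that order, and it was 0.17 without BD 14 replicate 2. Cy5 signal of the main probe went with the slide: it was 13500 to 34000 on slide A and 6590 to 14300 on slide C. The log2 ratios of those slides overlapped, at -1.17 to -0.20 on A and -1.53 to -0.28 on C.

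Ccng1 encodes cyclin G1, a p53 target that works with Mdm2 in turning p53 off again. Its probe, A_44_P367761 at rn4 chr10:25778638-25778912, spans 0.54 to 3.28 over the 22 arrays. BD 3 rats had log2 ratios of 2.16, 1.25, 1.65, 0.69 and 0.54, and CD 3 rats had 0.98, 1.60, 1.89, 3.28 and 2.65. BD 3 held the lowest pair of rats, and the other BD 3 rats lay within the CD 3 range. The log2 difference for diet at 3 months was -0.82 (SE 0.44, 95% interval -1.73 to 0.09, limma p 0.0754, adjusted p 0.755). Leaving out CD 3 replicate 4 made it -0.52, and leaving out CD 3 replicate 1 instead made it -1.10 (limma p 0.0218, adjusted p 0.336), and over 34 other settings the adjusted p ran from 0.336 to 0.999. The slide block gave -0.21 (95% interval -1.64 to 1.22), and slide B, with 2 BD 3 rats and 1 CD 3 rat, gave 0.72.

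At 14 months Ccng1 ran from 1.21 through 1.86 to 2.98 in CD 14 and from 0.85 through 2.00 to 2.85 in BD 14. These ranges nearly coincide. The log2 difference for diet at 14 months was 0.06 (95% interval -0.77 to 0.89), and that for time on BASE-diet 0.73 (95% interval -0.14 to 1.61). The slide block gave -0.61 and -0.35 for these (95% interval of the latter -1.96 to 1.27). Time on the control diet gave -0.15, or 0.06 with the block.

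Btg2, an antiproliferative gene that p53 and growth signals both switch on, had 1 value far from all others. Its probe, A_64_P009803, lies at rn4 chr13:47027022-47027081. BD 14 rats ran from -0.94 through 0.61 to 6.18, CD 14 from 0.06 through 0.57 to 1.28. CD 3 rats had log2 ratios of -1.37, -0.70, 0.10, 1.28 and 0.71, and BD 3 rats had -0.53, 0.19, 0.01, 0.12 and 1.18. The value of 6.18 is BD 14 replicate 2, and the next highest of the 22 rats was at 1.28. Its spots read 6.11 and 6.24 with Cy5 signals of 38900 and 40700, neither saturated, where the other BD 14 arrays had signals of 307 to 745.

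Gadd45a, which responds to DNA damage and other stress and slows the cycle, was apart in the same rat. The probe is A_44_P216395 at rn4 chr4:96650454-96650513. BD 14 rats ran from -0.31 through 0.25 to 3.37, and CD 14 from -0.11 through 0.38 to 0.91. CD 3 rats had 0.35, 0.00, 0.32, 0.01 and 0.79, and BD 3 rats had -0.15, 0.81, 1.40, 0.48 and 0.66. BD 14 replicate 2 alone lies above the range of the other groups, with spots at 3.46 and 3.28.

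That rat sets the group means of both genes. For Btg2 the log2 difference for diet at 14 months was 0.69 (95% interval -0.92 to 2.29) with all arrays and -0.28 without BD 14 replicate 2. Over time on BASE-diet it was 1.15 (95% interval -0.54 to 2.83) with all arrays and 0.18 without that rat. For Gadd45a the diet difference at 14 months was 0.35 (95% interval -0.56 to 1.27) with it and -0.18 without it. Over time on BASE-diet Gadd45a was at 0.06 with it and -0.48 without it, and over 34 other settings its adjusted p ran from 0.754 to 1. For diet at 3 months and time on the control diet Btg2 was at 0.19 and 0.65, and Gadd45a at 0.35 and 0.05. The 0.65 of Btg2 was 0.31 without CD 3 replicate 1, and the 0.35 of Gadd45a 0.16 without BD 3 replicate 3. Blocked by slide, and with all arrays, Btg2 had 0.91 for diet at either time and 0.95 for time on either diet, with a 95% interval of -2.40 to 4.30 over time on BASE-diet. Gadd45a then had -0.24 and 0.48 for diet at 3 and 14 months, and -0.60 and 0.11 for time on CD and BD in that order. Using Cy5 alone took Btg2 to 2.04 over time on BASE-diet (limma p 0.0238, adjusted p 0.238), where its adjusted p over 34 other settings ran from 0.238 to 0.99.

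Btg2 ranked 2 and Gadd45a 35 among 10574 named genes by how far BD 14 replicate 2 lay above the median of the other BD 14 arrays, with gaps of 5.61 and 3.43. The main probes of the other members had gaps between -0.21 for Mdm2 and 0.52 for Gdf15. On the second Cdkn1a probe this array was also the highest of its group, at 2.92 against 0.73 to 2.28. Among 10 tested immediate-early genes, which cells switch on within minutes of a stimulus, 9 were above all other BD 14 arrays on it, and their median gap was 3.03. Of the 12 ATF4 stress response genes 9 were above, with a median gap of 0.92, and over all genes the share was 29.5% and the median gap 0.06. Myc stood at 4.00, Egr1 at 3.80, Atf3 at 4.63 and Gadd45b at 3.97 on this array, genes picked here after their values were seen. Of the other p53 targets 5 of 32 were above all other BD 14 arrays and 15 of 32 below, where 23.8% of all genes were below, and their median gap was -0.25. The p53 regulators had 5 of 12 above and 4 below, with a median gap of 0.03, the family and pathway partners 6 of 15 above and 5 below, with -0.05, and the other senescence genes 6 of 23 above and 7 below, with -0.28. Over 2 log2 units higher were 0, 3 and 2 of these lists in turn, 1 of the 32 targets and 2.02% of all genes. Cell markers on this array also stood off the others: 3 of 3 dividing cell markers were below all other BD 14 arrays, with a median gap of -2.11, and 3 of 4 bile duct markers, with one of -1.35. Median gaps were -1.08 for Kupffer cell and macrophage markers (2 of 6 below, 1 above), -0.83 for endothelial (2 of 4 below, 1 above), -0.46 for red cell, -0.14 for stellate cell, 0.31 for hepatocyte (3 of 8 above) and 0.43 for lymphocyte markers (3 of 7 above). The part of cell make-up in the values of this array was not tested. On this array 780 of 19434 probes lay over 2 log2 units from the median of the group's other arrays, against 111 to 204 on the other BD 14 arrays and 303 to 2202 on those of CD 3. Its share of spots well above background was 74.3%, against 69.1% to 71.9% on the other BD 14 arrays.

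**Figure D2:**
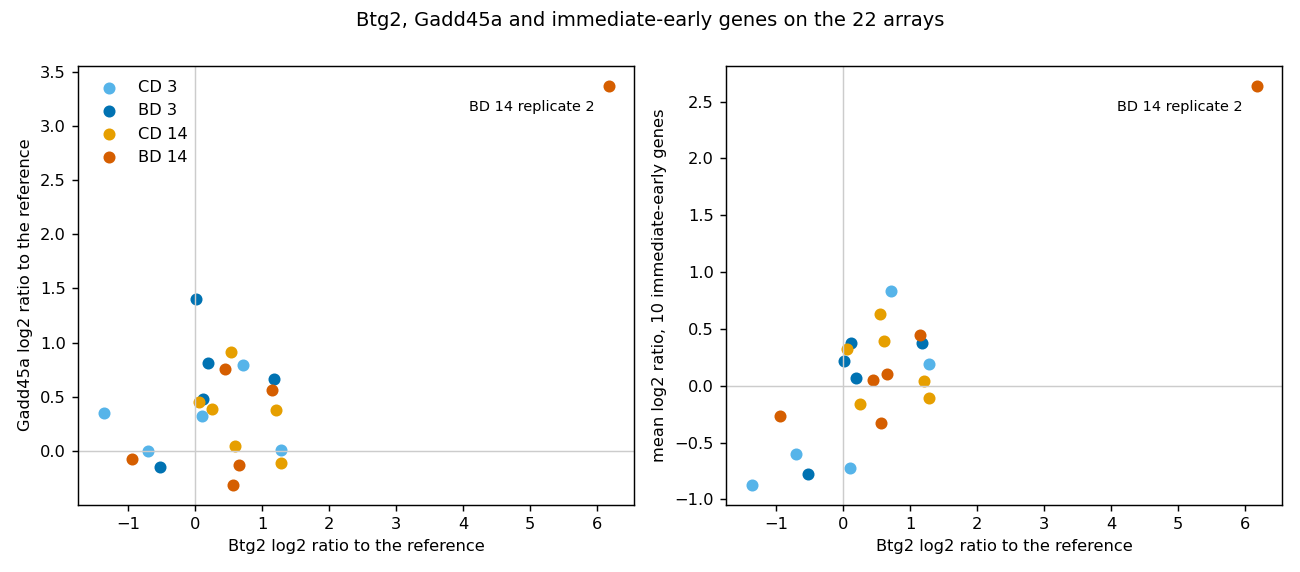
Both panels have the Btg2 log2 ratio of each rat on the x axis, against Gadd45a on the left and the mean log2 ratio of 10 immediate-early genes on the right, coloured by group. BD 14 replicate 2 stands alone at 6.18 for Btg2, 3.37 for Gadd45a and 2.64 for the immediate-early mean, and the other 21 rats form 1 cloud.

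The promoters of Btg2 and Gadd45a are shown because these members stood apart together on 1 array. They come from RefSeq (build GRCr8), reach from 250 bases before to 50 after the start, and 7 of the 8 members have an entry. Capitals mark TGACGTCA, the cAMP response element, which reads the same on both strands, and the p53 half-site, searched on both strands. Of 33469 promoters 1.83% hold the first and 7.98% the second. Btg2 is on the minus strand at chr13:48087641-48087940 and has the first only, and Gadd45a is on the minus strand at chr4:97486750-97487049 and has the second only.
Btg2: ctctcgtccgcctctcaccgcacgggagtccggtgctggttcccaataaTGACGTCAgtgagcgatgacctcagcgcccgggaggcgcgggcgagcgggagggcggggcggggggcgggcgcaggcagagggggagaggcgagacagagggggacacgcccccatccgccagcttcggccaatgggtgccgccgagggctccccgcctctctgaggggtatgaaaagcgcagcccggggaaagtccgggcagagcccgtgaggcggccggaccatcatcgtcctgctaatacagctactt
Gadd45a: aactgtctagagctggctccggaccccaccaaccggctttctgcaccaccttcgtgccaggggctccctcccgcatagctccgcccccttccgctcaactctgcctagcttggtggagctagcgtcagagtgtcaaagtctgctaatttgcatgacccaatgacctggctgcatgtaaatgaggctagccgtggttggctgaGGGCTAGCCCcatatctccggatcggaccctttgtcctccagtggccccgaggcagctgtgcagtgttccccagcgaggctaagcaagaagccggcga
Ccng1 and Cdkn1a each hold 1 p53 half-site in this window as well, and Mdm2, Cdkn2a and both Gdf15 entries hold neither motif. A match of letters is a description of the sequence and says nothing of binding.

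Bax, which opens the outer mitochondrial membrane in apoptosis, is read by probe A_43_P11800, printed 10 times on each array and given no rn4 position in the files. The SD between its 10 spots had a median of 0.15 over the 22 arrays. BD 3 rats had log2 ratios of 0.60, 0.80, 0.28, 0.25 and 0.64, and BD 14 ran from 0.60 through 1.09 to 1.50. CD 3 rats had 0.93, 0.68, 1.08, -0.19 and 0.08, and CD 14 ran from -0.73 through 0.89 to 1.17. Of the BD 14 rats 4 were above the highest BD 3 rat and 2 above the highest CD 14 rat, so the groups overlap in both comparisons.

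The Bax log2 difference over time on BASE-diet was 0.57 (SE 0.30, 95% interval -0.06 to 1.19, limma p 0.0747, adjusted p 0.708). With slide as a block it was 0.46 (95% interval -0.49 to 1.40). For diet at 14 months the difference was 0.48 (95% interval -0.12 to 1.08, limma p 0.11, adjusted p 0.952), the smallest p of any member in that comparison. Within slide C that diet difference was 0.17, and without CD 14 replicate 6, the lowest rat, it was 0.21. Means in BD 3 and CD 3 were 0.51 and 0.52, with a 95% interval of the difference from -0.66 to 0.65. This difference was -0.60 with slide as a block (95% interval -1.43 to 0.24), and within slide B it was -0.22. Time on the control diet gave 0.08, or -0.31 with the block.

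Gdf15, a secreted stress hormone that p53 and the integrated stress response both switch on, was more than 1 log2 unit above the reference in every rat. Its probe, A_64_P011489 at rn4 chr16:19313390-19313449, had log2 ratios of 1.46, 2.06, 3.20, 4.12 and 2.31 in CD 3 and 1.57, 2.72, 3.35, 1.93 and 2.30 in BD 3. CD 14 ran from 1.98 through 3.13 to 3.72 and BD 14 from 2.28 through 2.59 to 3.05. BD 14 is the tightest group, with an SD of 0.30 against 1.04 in CD 3, and it lies inside the range of each other group. All 6 BD 14 arrays share slide C, while CD 3 lies on slides B, D and E, so group and slide cannot be told apart in these SDs. The log2 differences were -0.26 for diet at 3 months (95% interval -1.14 to 0.63), -0.27 for diet at 14 months (-1.08 to 0.54), 0.32 for time on the control diet (-0.53 to 1.16) and 0.30 for time on BASE-diet (-0.55 to 1.15). The slide block made them 0.10, -0.45, 0.46 and -0.09, and within slide B, with 1 CD 3 rat, diet at 3 months came to 0.69. With single arrays left out, diet at 3 months ran from -0.55, without CD 3 replicate 1, to 0.12, without CD 3 replicate 4. Diet at 14 months ran from -0.46, without CD 14 replicate 6, to -0.11, without CD 14 replicate 2. Time on BASE-diet ran from 0.10, without BD 3 replicate 1, to 0.55, without BD 3 replicate 3.

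Cdkn2a encodes the senescence inhibitor p16 and, from another reading frame, Arf, which blocks Mdm2. Its single probe, A_64_P071770 at rn4 chr5:108910777-108910836, had Cy5 signals of only 17.9 to 85.7. On CD 3 replicate 4, which has its highest ratio, a share of 0.5 of its spots was well above background, and the SD between its spots reached 1.15 on CD 3 replicate 3. CD 3 rats had log2 ratios of -0.41, -0.21, 0.48, 1.23 and -0.02, and BD 3 rats had -0.33, -0.40, 0.20, -0.18 and -1.13. CD 14 ran from -0.33 through -0.05 to 0.43 and BD 14 from -0.90 through -0.16 to 0.09. Both BASE-diet groups have lower means than both control groups, and every pair of groups overlaps.

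The Cdkn2a log2 difference for diet at 3 months was -0.58 (SE 0.29, 95% interval -1.19 to 0.03, limma p 0.0597, adjusted p 0.73), the smallest p of any member in that comparison. With slide as a block it was 0.14 (95% interval -0.77 to 1.05), within slide B 0.04, and it was 0.16 when only Cy5 was used. Without CD 3 replicate 4 the value was -0.33, and without CD 3 replicate 1 it was -0.74 (limma p 0.0222, adjusted p 0.337). Leaving out BD 3 replicate 3 or CD 3 replicate 2 gave -0.72 and -0.69 (limma p 0.027 and 0.0372). Median-centred arrays gave -0.62 and the replicate block -0.58 (limma p 0.039 and 0.0431). The adjusted p for diet at 3 months ran from 0.337 to 0.999 over 34 other settings. At 14 months the diet difference was -0.33 (95% interval -0.89 to 0.22), with -0.51 within slide C and -0.73 from Cy5 alone (limma p 0.00351, adjusted p 0.454), and over 34 other settings its adjusted p ran from 0.454 to 1. The time differences were -0.19 with the control diet (95% interval -0.78 to 0.39) and 0.05 with BASE-diet (-0.53 to 0.63). They were 0.32 and -0.33 with slide as a block, and 0.22 and -0.67 from Cy5 alone (limma p of the latter 0.00902, adjusted p 0.174, with a range of 0.174 to 0.998 over 34 other settings).

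**Figure D3:**
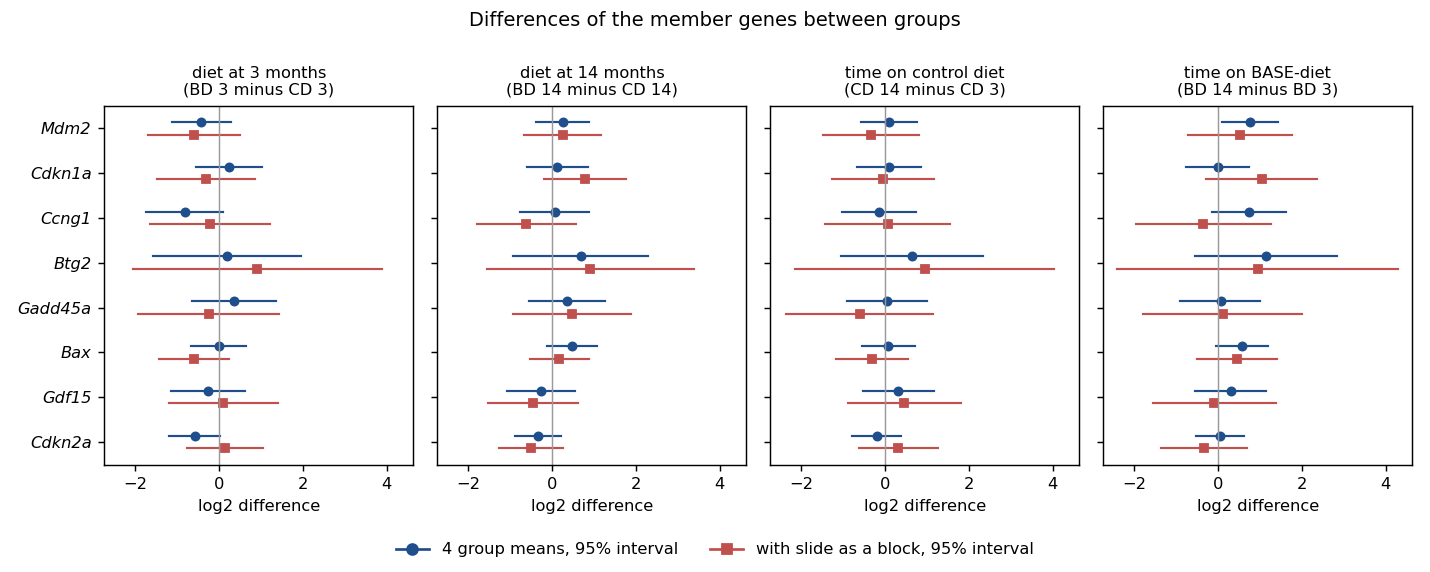
Log2 differences of each member's main probe, with 95% intervals, for the diet and the time comparisons, from the fit of 4 group means (blue circles) and with slide as a block (red squares). Of the intervals without the block, that of Mdm2 over time on BASE-diet, 0.09 to 1.42, is the one that leaves out 0, and with the block all include 0.

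One array is at the edge for most members. CD 3 replicate 4 was the dimmest, with a median Cy5 signal of 21.8, and 2202 of 19434 tested probes lay over 2 log2 units from the median of the group's other arrays. The other CD 3 arrays were scattered too, with 993 on replicate 1, 921 on replicate 2, 531 on replicate 3 and 303 on replicate 5. On the main probes CD 3 replicate 4 was the lowest of the CD 3 rats for Cdkn1a and Bax. It was the highest for Mdm2, Ccng1, Gdf15, Cdkn2a and Btg2. On the other Cdkn1a probe the lowest was CD 3 replicate 2, and on the other Mdm2 probe CD 3 replicate 4 was the lowest, at -1.03. Without it the Gdf15 difference over time on the control diet was 0.69 in place of 0.32, where leaving out CD 3 replicate 1 gave 0.02, and the Cdkn1a difference for diet at 3 months -0.21 in place of 0.24. The part of its low signal in those values was not tested.

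Over the 22 arrays the 28 pairs of main probes had Pearson r from -0.48 to 0.74 with a median of 0.17, as a description of arrays that share slides and a reference. The highest, Btg2 with Gadd45a, was 0.08 without BD 14 replicate 2. Leaving out that rat took Mdm2 with Btg2 from 0.40 to 0.66 and Cdkn1a with Btg2 from -0.08 to -0.46. Mdm2 with Gdf15 was at 0.67, and at 0.58 without CD 3 replicate 4, and Cdkn2a with Ccng1 at 0.62 and 0.49. The lowest, Cdkn1a with Gdf15, was -0.22 without CD 3 replicate 4, and Cdkn1a with Mdm2 went from -0.46 to -0.23. No r between other genes was set beside these.

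For each member the 3 most similar of 10342 named genes were found by r over the 22 arrays. Mdm2 was nearest to Cyria at 0.86, Cdkn1c at 0.79 and Uchl3 at 0.78, and Cdkn1c is another inhibitor of cyclin-dependent kinases. The main Cdkn1a probe was nearest to Otx1 at 0.97, Psd at 0.96 and Grin2d at 0.95, with 0.95, 0.93 and 0.89 without CD 3 replicate 4. Its r with the other Cdkn1a probe was only 0.31, or 0.20 without that array. Btg2 was nearest to Retreg1 at 0.93, Ets2 at 0.88 and H3f3b at 0.87, which became 0.81, 0.46 and 0.33 without BD 14 replicate 2. Gadd45a was nearest to the immediate-early genes Ier2 at 0.84, Ier3 at 0.83 and Myc at 0.82, and these became 0.54, 0.41 and 0.59 without that rat. Ccng1 was nearest to Ap3m1 at 0.78, Sec61b at 0.75 and Ssr1 at 0.74, and Gdf15 to Pcnt at 0.83, Nek1 at 0.81 and Dnajc25 at 0.81. Closest to Bax were Armc6 at 0.82, Pole4 at 0.82 and Sra1 at 0.80, and to Cdkn2a Pde7b at 0.85, Rdh8 at 0.83 and Bsdc1 at 0.83.

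The wider pathway was counted from lists. Of the p53 regulators 12 were tested, of other p53 targets 32, of other senescence genes 23 and of family and pathway partners 15, and limma called 0 of each for diet, for time and for the interaction. The lists were not counted in the F test. The median log2 difference of the 8 members was -0.13 for diet at 3 months and 0.19 for diet at 14 months, where over all genes it was 0.03 in each. Without BD 14 replicate 2 the 8 differences for diet at 14 months had a middle pair of -0.18 and 0.06. Over time the members' median was 0.09 on the control diet, against 0.03 over all genes, and 0.43 on BASE-diet, against 0.06. Without BD 14 replicate 2 the 8 differences over time on BASE-diet had a middle pair of 0.18 and 0.23. With slide as a block and all arrays, the members' median was -0.22 for diet at 3 months and 0.22 for diet at 14 months. Over all genes the block gave 0.15 and 0.02 for these. The members' median with the block was -0.00 over time on the control diet, against 0.14 over all genes. It was 0.28 over time on BASE-diet, against -0.01. Counts at an unadjusted p under 0.05 with that block, for regulators, targets, senescence genes and partners in turn, were 3, 4, 1 and 1 for diet at 3 months, beside 1898 of all 17089 genes, and 0, 3, 1 and 0 for diet at 14 months, beside 1269. They were 1, 3, 1 and 1 for time on the control diet, beside 1029, then 0, 1, 1 and 1 for time on BASE-diet, beside 782, and 2, 2, 1 and 1 for the interaction, beside 1897. Genes are named below from the fit without the block.

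For diet at 3 months 1 of 12 regulators, 2 of 32 targets, 2 of 23 senescence genes and 0 of 15 partners had an unadjusted p under 0.05, beside 6.94% of all genes. Mdm4, the partner of Mdm2 that also restrains p53, had -0.38 ± 0.19 in BD 3 and 0.28 ± 0.66 in CD 3, a log2 difference of -0.66 (adjusted p 0.673), or -0.21 with slide as a block. The DNA polymerases Polh and Polk differed by -0.63 and -0.52, or -0.55 and -0.38 with the block. Polk stood at 1.10 on CD 3 replicate 4 and at -0.51 to 0.28 on the other CD 3 arrays. Cdkn1b, the inhibitor p27, differed by 1.18 (adjusted p 0.435), or 0.99 with slide as a block, and Hmgb1 by 0.98, or -0.05 with the block.

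For diet at 14 months 0 of 12 regulators, 0 of 32 targets, 1 of 23 senescence genes and 1 of 15 partners had an unadjusted p under 0.05, beside 4.11% of all genes. Ccnd1, which encodes cyclin D1, ran from -2.54 to -0.15 in CD 14 and from -1.19 to 0.52 in BD 14. The difference was 1.17 (adjusted p 0.934), or 2.42 with slide as a block (limma p 0.000224, unadjusted). Btg3, a relative of Btg2, differed by 0.96, or 0.45 with the block.

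Over time on the control diet 0 of 12 regulators, 2 of 32 targets, 4 of 23 senescence genes and 1 of 15 partners had an unadjusted p under 0.05, beside 10.1% of all genes. The death receptor Fas differed by 1.06, Cdkn1b by 1.07, Cdkn2b, which encodes the inhibitor p15 beside Cdkn2a, by 0.88, Hmgb1 by 0.84, Gpnmb by 1.09 and Btg1 by 1.06. Lower over time was Gls2, a glutaminase that p53 switches on, at -0.51. The slide block brought Fas to 0.04, Cdkn1b to 0.40, Cdkn2b to 1.34, Hmgb1 to -0.03, Gpnmb to 0.65, Btg1 to 0.27 and Gls2 to 0.03. Btg1 stood at -1.57 on CD 3 replicate 4 and at -0.14 to 0.71 on the other CD 3 arrays.

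Over time on BASE-diet 0 of 12 regulators, 2 of 32 targets, 3 of 23 senescence genes and 2 of 15 partners had an unadjusted p under 0.05, beside 7.27% of all genes. Fas ran from -0.69 to 0.64 in BD 3 and from 1.16 to 3.85 in BD 14, a log2 difference of 1.54 (SE 0.45, adjusted p 0.368). Cdkn2b ran from -0.31 to 0.85 and from 0.87 to 2.28, a difference of 1.26 (adjusted p 0.396). Cdkn1c ran from -0.30 to 0.84 and from 0.95 to 2.76, a difference of 1.63 (adjusted p 0.304). The groups of these 3 genes did not overlap, as in 2.24% of all genes without a missing value. They were named for their p in this same comparison, so that is a description only. The slide block gave differences of 0.57, 0.06 and 1.95. The other 4 had groups that overlapped: Gls2 at -0.60 (adjusted p 0.559), Timp1 at 0.75, Gpnmb at 1.09 and Btg3 at 1.21, which the block brought to -0.36, 0.28, 0.06 and 0.49. Timp1 stood at 1.63 on BD 14 replicate 5, an array with high bile duct markers, and at -0.50 to 0.44 on the other BD 14 arrays. The part of cell make-up in that Timp1 value was not tested. Of the 12 ATF4 stress response genes 1 had an unadjusted p under 0.05, Asns at 1.60 (adjusted p 0.447), or 2.24 with the block. The difference between the diet effects at the 2 times had an unadjusted p under 0.05 in 1 of 12 regulators, Mdm4 at 1.04 (adjusted p 0.993), or 0.69 with the block, in 1 of 23 senescence genes, Cdkn1b at -1.20, or -0.87 with it, and in 0 of the targets and partners, beside 4.57% of all genes.

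The tissue is bulk liver, so fewer cells of a type and less RNA per cell cannot be told apart. Of the Kupffer cell and macrophage markers 4 of 6 were higher over time on the control diet at an unadjusted p under 0.05. Over all genes 10.1% had such a p, higher or lower. Of these markers 0 of 6 were called, and with slide as a block 0 of 6 had such a p. Their median difference was 1.17, or 0.37 with the block. Their mean log2 ratio was -1.79 in CD 3 and -0.70 in CD 14, and Clec4f was the brightest on each array. Over time on BASE-diet the members' median was 0.43, with a middle pair of 0.18 and 0.23 without BD 14 replicate 2. There 0 of 6 Kupffer cell and macrophage markers had an unadjusted p under 0.05, beside 7.27% of all genes. The median of these markers was 0.28, or -0.60 with slide as a block. Hepatocyte markers had medians of 0.20 and 0.09 in these comparisons. Over time on BASE-diet the other markers' medians were 0.71 for red cell, 0.66 for bile duct, 0.43 for lymphocyte, 0.07 for stellate cell, -0.09 for dividing cell and -0.18 for endothelial, with 0 markers of any list at an unadjusted p under 0.05. The bile duct markers had a mean log2 ratio of 1.77 on BD 14 replicate 5 and of -1.39 to 0.65 on the other BD 14 arrays. The block gave 0.50, 0.78, -0.88, 0.03, -1.03 and -0.22 in that order, and 0.23 for hepatocyte markers. On the control diet 2 of 7 lymphocyte markers were also higher over time at an unadjusted p under 0.05. So were 1 each of the 8 hepatocyte, 7 stellate cell and 4 endothelial markers. With slide as a block 0, 0, 0 and 2 markers of these lists had such a p, in that order. For diet at 3 months 6.94% of all genes had an unadjusted p under 0.05. At such a p 2 of 4 red cell markers were lower and 2 of 7 stellate cell markers higher. With the block 1 of 4 and 1 of 7 had such a p, and so did 2 of 7 lymphocyte and 2 of 4 endothelial markers. The block took the red cell median from -0.81 to -1.05 and the stellate cell median from 0.34 to -0.07. For diet at 14 months 0 markers of any list had such a p without the block, beside 4.11% of all genes. The part of cell make-up in the members' values was not tested.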

How the data were processed

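The log10 values are ratios of processed Cy5 to processed Cy3, deposited by the authors as the scanner software wrote them (per the file headers Feature Extraction 10.10.1.1, per the labels 10.7.3.1) after background subtraction and dye normalization within each array, on build rn4. The intensity values, processed and raw, were deposited by the authors in the same files. The authors' file of entries they found significant holds their own findings and was not used. Ratios were turned to log2, control and non-uniform spots left out and spots averaged per probe. Tested probes had a Cy5 signal well above background in a share of 0.5 or more of their spots, on each array of 1 group or more. Differences come from limma 3.58.1 (R 4.3.3), as 4 group means with eBayes and contrasts, and Benjamini-Hochberg adjustment over 19434 probes. Tables were made in Python 3.11.15. The code was tested on simulated data. A gene's main probe has the highest mean Cy5 signal. Named genes are the members, the 3 genes nearest to each by r, and genes of the pathway lists with an unadjusted p under 0.05, up to 4 per list and comparison; cell markers are counted, with the brightest named. Atf3, Egr1, Gadd45b and Myc were also named for 1 array, after their values were seen. Members and lists were chosen with earlier results of these data known. Alternatives changed the background correction, reference channel, scaling, detection filter, non-uniform spots, slide or replicate block, array weights, groups fitted, test, probe and each array. Leaving out the 2 arrays with many non-uniform spots was added after seeing the data.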

Additional observations from a re-analysis of the deposited data

Results flagged for a closer look

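Among 40 groups of member probes, 2 had 1 array far from the others of its group, and chance marks about 1 in 20 groups this way, or 2 of 40. Both are BD 14 replicate 2, where Btg2 had a log2 ratio of 6.18 and Gadd45a one of 3.37, each the highest of its 6 rats. The next highest BD 14 rats were at 1.15 and 0.76. Both genes sit on the same array, so these are not separate events.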

How the results depend on the processing

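Of 392 log2 differences under 13 other settings 37 reversed, and of 704 with 1 array left out 38 did. The count of members at an adjusted p under 0.05 was 0 under every setting, in limma and in the ANOVA of the study's methods. None of the reversed differences was called as reported, and the cause was not tested.

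With slide as a block the reversed differences were -0.32, -0.06 and 1.04 for Cdkn1a (diet at 3 months, time on control diet, time on BASE-diet), 0.14, 0.32 and -0.33 for Cdkn2a (the same comparisons), -0.33 for Mdm2 and -0.31 for Bax (time on control diet), -0.61, 0.06 and -0.35 for Ccng1 (diet at 14 months and both times), 0.10 and -0.09 for Gdf15 (diet at 3 months, time on BASE-diet), and -0.24 and -0.60 for Gadd45a (diet at 3 months, time on control diet). With the Cy5 channel alone they were -0.58 for Cdkn1a (diet at 14 months), 0.16, 0.22 and -0.67 for Cdkn2a (diet at 3 months and both times), -0.08 for Mdm2 and 0.03 for Ccng1 (time on control diet), 0.03 for Gdf15 (diet at 14 months), and 0.29 for Bax and -0.51 for Btg2 (diet at 3 months). The replicate block gave 0.03 for Cdkn1a (time on BASE-diet) and 0.01 for Ccng1 (time on control diet). The other probe gave 0.36 for Cdkn1a (time on BASE-diet) and -0.34 for Mdm2 (time on control diet). Median-centred arrays gave -0.01 for Cdkn2a and -0.00 for Gadd45a (time on BASE-diet) and -0.00 for Ccng1 (diet at 14 months). Array weights gave -0.09 and -0.25 for Gadd45a (diet at 14 months, time on BASE-diet). With both arrays rich in non-uniform spots left out, an alternative chosen after seeing the data, Mdm2 was at -0.02 (time on control diet), Ccng1 at -0.08 (diet at 14 months), and Bax at 0.10 and Btg2 at -0.15 (diet at 3 months).

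Members at an unadjusted p under 0.05 were 0 for diet at 3 months as reported, 1 with normexp and loess, with median-centred arrays and with the replicate block, and 2 with the Cy5 channel alone and without both arrays rich in non-uniform spots. With the Cy5 channel alone there was 1 for diet at 14 months in place of 0, 4 for time on BASE-diet in place of 1, and 3 for diet by time and for any group in place of 0. For time on BASE-diet the count was also 0 with slide as a block and with the ANOVA, 2 with only the groups compared, and 3 with the replicate block and with array weights. With single arrays left out the count for time on BASE-diet ran from 0, without BD 14 replicate 3 or replicate 4, to 2, without BD 14 replicate 5 or 6 or CD 14 replicate 6. Without BD 3 replicate 1 the count was 1, with Ccng1 in place of Mdm2. For diet at 3 months it ran from 0 to 2, with 2 without CD 3 replicate 1 and 1 without CD 3 replicate 2, BD 3 replicate 1 or BD 3 replicate 3. For any group it ran from 0 to 1, with 1 without CD 3 replicate 4. Same-numbered arrays of different groups had r of -0.272 to 0.286, and the numbers do not pair samples.

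With single arrays left out, the ranges that crossed 0 were, for diet at 3 months, -0.21 to 0.46 for Cdkn1a, -0.55 to 0.12 for Gdf15, -0.18 to 0.14 for Bax and -0.15 to 0.51 for Btg2. For diet at 14 months they were -0.02 to 0.26 for Cdkn1a, -0.11 to 0.29 for Ccng1, -0.28 to 1.14 for Btg2 and -0.18 to 0.55 for Gadd45a. For time on control diet they were -0.35 to 0.32 for Cdkn1a, -0.35 to 0.06 for Cdkn2a, -0.13 to 0.39 for Mdm2, -0.42 to 0.15 for Ccng1, -0.09 to 0.35 for Bax and -0.06 to 0.17 for Gadd45a. For time on BASE-diet they were -0.15 to 0.12 for Cdkn1a, -0.14 to 0.20 for Cdkn2a and -0.48 to 0.26 for Gadd45a. Ranges that kept their sign were, in that order of comparisons, -0.74 to -0.33 and -0.41 to -0.22 for Cdkn2a (diet), -0.64 to -0.13, 0.14 to 0.35 and 0.54 to 0.88 for Mdm2 (diet, time on BASE-diet), -1.10 to -0.52 and 0.55 to 0.96 for Ccng1 (diet at 3 months, time on BASE-diet), -0.46 to -0.11, 0.02 to 0.69 and 0.10 to 0.55 for Gdf15 (diet at 14 months, both times), 0.21 to 0.59 and 0.48 to 0.66 for Bax (diet at 14 months, time on BASE-diet), 0.31 to 0.97 and 0.18 to 1.60 for Btg2 (both times), and 0.16 to 0.54 for Gadd45a (diet at 3 months).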
